A study of Mus musculus with 18 samples.

Results

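The genes described here are 44 ribosomal proteins, translation factors and their regulators, out of 12241 genes in the deposited tables of Ribo-Seq and RNA-Seq of the mouse embryo at E11.5. They are the genes with a symbol that starts with Rpl, Rps, Eif or Eef, apart from the Rps6k and Eif2ak kinases, among the genes to which a supplementary table of the study gives a symbol. Those tables put the genes first whose translational efficiency (TE) stood out, so the members were chosen by measured TE and are not all ribosomal proteins of the mouse. The table on the mesoderm, chosen by TE in the mesoderm libraries, lists 11 of them. The table on neural tube (NT) and forelimb buds (FL), chosen by the change in TE between these tissues, lists 35, with *Rplp2* and *Eif4ebp3* in both tables. The members comprise 18 proteins of the large subunit, 15 of the small subunit, 5 initiation factors, 2 elongation factors and 4 regulators, with *Rps4l*, *Rps27l* and *Rpl36al* counted as ribosomal proteins by their symbols.

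A ribosome has a small subunit, which reads the mRNA, and a large subunit, which joins the amino acids. Each subunit holds rRNA and a set of proteins of which nearly all are present once, apart from the stalk proteins encoded by *Rplp1* and *Rplp2*. Initiation factors bring the small subunit to the mRNA, and elongation factors serve the ribosome as it moves along. Most mRNAs of ribosomal proteins and elongation factors start with a 5′ terminal oligopyrimidine tract, through which the mTOR pathway controls their translation, and many of these genes have processed pseudogenes of nearly the same sequence.

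Mesoderm cells were sorted as GFP+ from R26-mTmGflox/+; Tg(T-cre)1LWD/J/+ embryos, in which Cre expressed from the T promoter marks descendants of the primitive streak, so that blood and vessels of that origin can be among them. NT and FL were dissected from FVB embryos, both from the same ones, and embryos and dissection medium were kept in cycloheximide, which halts ribosomes. The buffer, medium and trypsin digestion used on the mesoderm embryos contained it as well. Each tissue had 3 replicates in RNA-Seq, which counts mRNA, and in Ribo-Seq, which counts ribosome-protected fragments (RPFs). Depth on the genes of the tables ran from 24555103 to 50136443 reads in RNA-Seq and from 11000015 to 31993255 in Ribo-Seq.

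All values are reads divided by a library size, called normalized reads, and log2 TE is the difference between Ribo-Seq and RNA-Seq in log2(normalized reads + 1), centred on the median of all genes. The labels were checked against markers, of which few carry a symbol. The 3 of 9 for neural tube, *Nes*, *Dcx* and *Fabp7*, were higher in each NT RNA-Seq library than in any FL one, and the 5 of 8 for forelimb, *Hoxd10*, *Hoxd11*, *Hoxd13*, *Msx1* and *Lum*, were higher in each FL library than in any NT one. For the mesoderm 2 of 6 were found, *Myf5* and *Tcf15*, and both were present in all its libraries. For endothelium 0 of 4 were found. Ribo-Seq replicate 3 of FL stood apart from the other FL Ribo-Seq libraries, with a Pearson's r of 0.886 and 0.896 across genes against 0.976 between those, and replicate 3 of NT did so less, with 0.933 and 0.934 against 0.989. Results that rest on them are given with and without them. In the mesoderm, RNA-Seq replicate 1 stood apart, with 0.939 and 0.953 against 0.987 between the others. Mesoderm Ribo-Seq replicates 1 and 2 correlated at 0.919, and each with replicate 3 at 0.961. In bulk samples, fewer cells of a type and less RNA per cell cannot be told apart.

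The members had short coding sequences. In the GENCODE annotation of GRCm38, 43 of them matched a coding transcript, with a median coding length of 432 nt against 1179 nt over 21500 genes, and 40 of the 43 lay under the latter value. As the authors left out the first 15 and last 5 codons, little remained of the shortest. *Rpl41*, a large subunit protein of 25 residues, kept 6 codons, with the counted bases 46 to 63 of its coding sequence being aagagaagaaagatgagg.

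Several members also shared their sequence with other genes, and the authors kept only reads that mapped to 1 place among canonical transcripts. Of all the 30-base windows of *Rps27* and *Rps12*, 0% were found in no other gene with a coding transcript, against 20.8% for *Rplp2*, 23.2% for *Rplp1*, 6.5% for *Rpl36al* and 100.0% for *Rpl37*. When pseudogenes and other transcripts were searched too, the share was 12.8% for *Rpl37*, 5.1% for *Rps15a* and 15.3% for *Rpl14*, but 88.4% for *Rpl8*. It was 0.0% for *Rps29* and *Rpl19*, although these had 571 and 264 normalized reads per counted codon in mesoderm Ribo-Seq. A low share thus did not always go with few reads. The annotation is larger than the set of transcripts the authors aligned to, so these shares do not say how many reads were lost. Levels of members with near-identical copies are uncertain in all comparisons below.

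Ribosomal protein members often had a run of pyrimidines near the annotated start of transcription, while such tracts lie at the start itself. A run of 8 or more C or T on the sense strand was found within 20 bases on either side of the RefSeq start in 14 of 26 ribosomal protein members with a sequence (53.8%), in 0 of 7 other members and in 18.4% of 27025 genes. The 30 bases around 5 of these starts are shown as examples, with the longest runs first and then members whose TE is described below. The sequences are those of RefSeq on GRCm38.p6, on the sense strand, and the run is in capitals.
Rpl7a, chr2:26910792-26910821, plus strand: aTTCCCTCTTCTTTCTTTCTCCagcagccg
Rpl35, chr2:39005117-39005146, minus strand: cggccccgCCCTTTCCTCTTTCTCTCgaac
Rpl14, chr9:120571502-120571531, plus strand: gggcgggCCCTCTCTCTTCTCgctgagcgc
Rplp2, chr7:141447636-141447665, plus strand: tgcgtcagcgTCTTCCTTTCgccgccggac
Rps27, chr3:90213634-90213663, minus strand: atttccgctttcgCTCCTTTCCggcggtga
Counted from the 5′ end, the start site is the sixteenth base of each, and each of these runs spans it. In the members not shown the run did not reach the start site. It lay upstream in most of them, such as *Rps25* and *Rpl39*, and downstream in *Rpl18* and *Rps12*. The run in *Rpl7a* holds 21 pyrimidines and that in *Rpl35* 18, of which all are shown, whereas *Rps27* has 9.

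Per counted codon, ribosomal protein members fell into a large group at similar levels and a few far below. In the mesoderm the median over 32 of them was 138 normalized reads per codon in Ribo-Seq, with 25% of them below 51.5, and 105 in RNA-Seq. *Rps29*, a small subunit protein with a zinc-binding motif, was highest in Ribo-Seq at 571. At the other end, *Rps27*, also of the small subunit, had 0.121 in Ribo-Seq and 4.26 in RNA-Seq. *Rps15a*, *Rpl37*, *Rpl29* and *Rplp2* had between 3.30 and 5.13 in Ribo-Seq and between 0.316 and 0.844 in RNA-Seq, and *Rpl14* had 12.7 and 2.05. These 6 genes are members that the mesoderm table lists, and so were chosen for their TE in the same libraries. *Rpl31*, which only the NT and FL table lists, was next to them at 15.8 in Ribo-Seq and 8.61 in RNA-Seq.

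**Figure D1:**
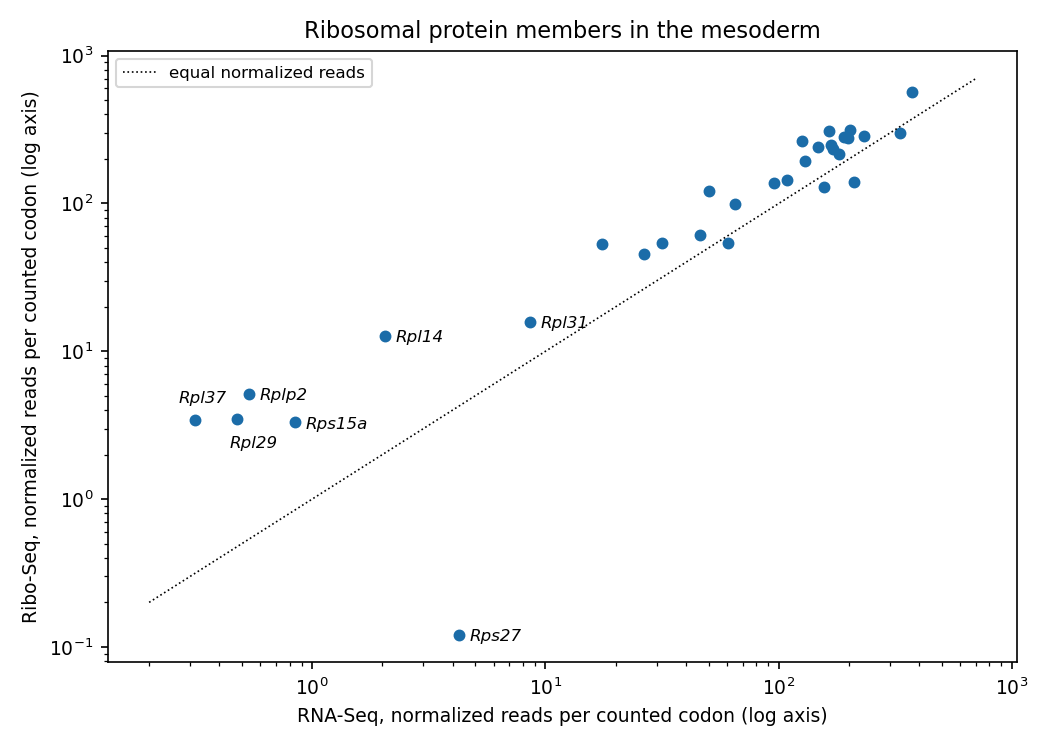
Normalized reads per counted codon in mesoderm Ribo-Seq (vertical, log axis) against RNA-Seq (horizontal, log axis), each point the mean of 3 replicates for 1 of 31 ribosomal protein members, without *Rpl41* and its 6 codons. Most genes lie together at the upper right, *Rpl37*, *Rpl29*, *Rplp2*, *Rps15a* and *Rpl14* lie at low mRNA above the line of equal reads, and *Rps27* lies far below it.

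Within mesoderm and FL, the share of all RPFs that fell on the ribosomal protein members differed between libraries more than their share of mRNA. In RNA-Seq they took 1.86% ± 0.195 (SD, n = 3) of the reads on table genes in the mesoderm, 1.36% ± 0.31 in NT and 1.68% ± 0.125 in FL. In Ribo-Seq the mesoderm libraries had 1.69%, 3.15% and 1.95% in replicates 1, 2 and 3. The NT libraries had 0.876%, 0.885% and 1.24%, and the FL libraries had 2.74%, 2.80% and 1.32%. Thus replicate 2 was high in the mesoderm, replicate 3 was low in FL and high in NT, and all 3 FL values lay above all 3 NT values. Of the 32 members measured in NT and FL, 27 had been chosen by the change in TE between them. TE was higher in FL for all 27, so the gap between FL and NT is not independent of the choice. The Wilson 95% intervals of the Ribo-Seq shares, which cover counting error only, were narrower than the gaps between replicates. They were 2.73% to 2.745% for FL replicate 1 and 1.314% to 1.326% for FL replicate 3.

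Within each tissue, the Ribo-Seq library or libraries with a high share of ribosomal protein RPFs were also high in *Hba-x*, an embryonic alpha-type globin of red blood cells and the only 1 of 6 blood markers on the list with a symbol in the tables. In Ribo-Seq *Hba-x* took 0.0373%, 0.296% and 0.0739% of the reads of mesoderm replicates 1, 2 and 3, 0.213%, 0.211% and 0.274% in NT, and 0.465%, 0.596% and 0.371% in FL. Between tissues this did not hold, as NT had more of it than mesoderm replicate 1 but a lower share of ribosomal protein RPFs. In RNA-Seq, replicate 2 was the highest of the mesoderm libraries at 0.0516%, and NT with 0.0876%, 0.0734% and 0.0486% overlapped FL with 0.0603%, 0.0716% and 0.110%. The part of blood cells in the values of the members was not tested.

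**Figure D2:**
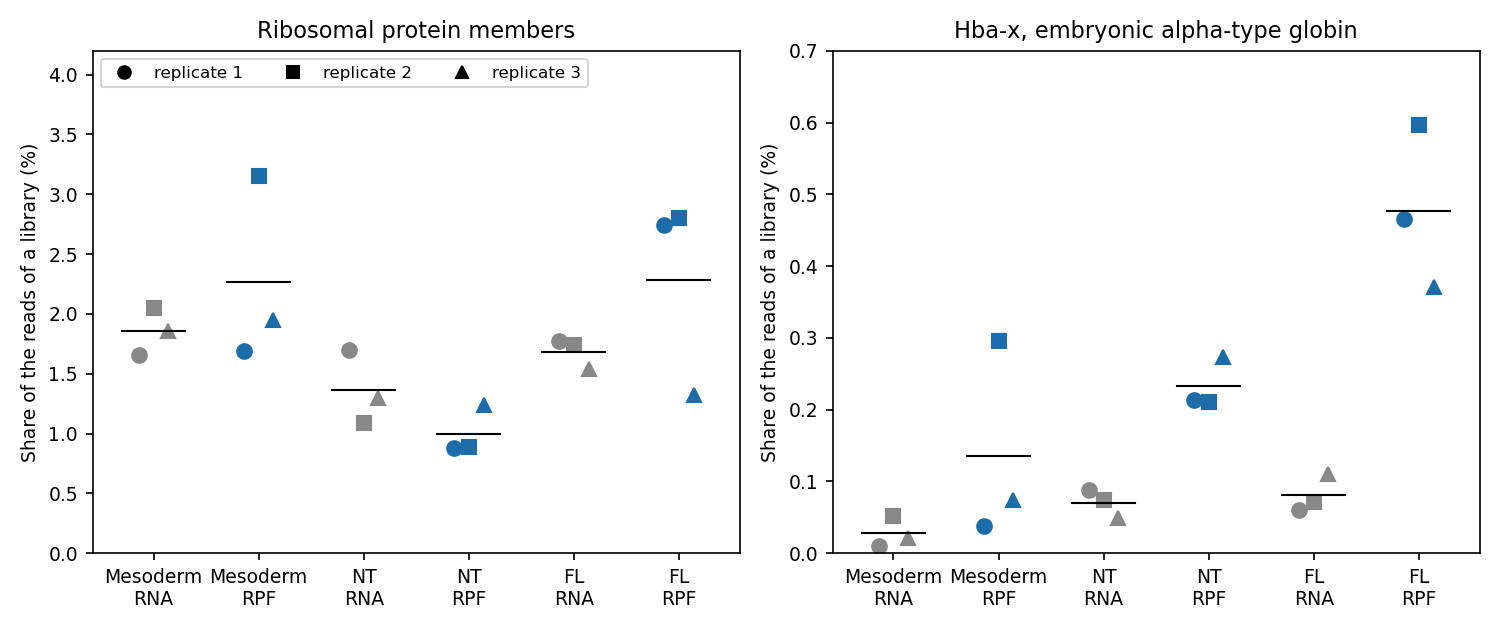
Share of the reads of each library, in percent, on the ribosomal protein members (left) and on *Hba-x* (right), by tissue and library type, with RNA-Seq in grey, Ribo-Seq in blue and the mean of 3 replicates as a line. In Ribo-Seq, mesoderm replicate 2 has the highest mesoderm share in both panels at 3.15% and 0.296%, and FL replicate 3 has the lowest FL share in both at 1.32% and 0.371%.

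TE in the mesoderm can be tested for the 35 members that the NT and FL table lists, since they are members whatever the mesoderm libraries showed. They were chosen on FL against NT, however, and the marked mesoderm includes that of the limbs, so all genes are not a matched background. Most of the 35 stood above the median gene. With limma and the replicate as a block, 19 of the 35 had a TE above the median at a Benjamini-Hochberg adjusted p under 0.05, 3 lay below it and 13 were not called, where 32.0% of all genes in the table were called above and 34.2% below. Their median log2 TE was 0.51. In all 3 replicates, 22 of the 35 lay above the median and 6 below, against 39.5% and 39.8% of all genes. Without the block, 7 members were called above, against 16.9% of all genes, and 1 below, against 23.0%. Without replicate 3, 10 were called above, against 21.5%, and 1 below, against 27.3%. Without replicate 2, in which *Hba-x* was highest, 16 were called above, against 33.6%, and 5 below, against 35.9%. Without replicate 1, 20 were called above, against 30.1%, and 1 below, against 32.2%.

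Of the 14 large subunit proteins among them, *Rplp2* (uc009klf.1), a stalk protein that recruits elongation factors, had by far the highest log2 TE among the 35, 3.01 ± 0.37 (SE, n = 3), an 8.03-fold excess over the median (limma, adjusted p = 6.3e-05). It was the only 1 of the 35 to pass the 3-fold threshold upwards, which 1.17% of all genes did. The mesoderm table, chosen by TE in these same libraries, lists *Rplp2* too. Its RPFs were 338.1, 251.0 and 889.7 normalized reads in replicates 1, 2 and 3, and its mRNA only 64.8, 51.6 and 38.5, so that every Ribo-Seq library lay above every RNA-Seq library. This mRNA was 128, 108 and 66 reads, and 14.6% of the 30-base windows of *Rplp2* were found in no other gene, pseudogenes included. *Rpl7a* followed at 1.14 ± 0.22 (SE), with an adjusted p of 0.001 in limma. Then came *Rpl19* at 0.94, *Rpl8* at 0.77, *Rpl18* and *Rpl31* at 0.62, *Rpl22* at 0.56, *Rpl39* at 0.55 and *Rpl35* at 0.50, all called above. *Rpl35* passed narrowly, at an adjusted p of 0.049 in limma. *Rpl37a* at 0.49, *Rpl13* at 0.35, *Rplp1* at -0.22 and *Rpl12* at -0.34 were not called, nor was *Rpl41* at 0.54, whose replicates spread over 1.14, -1.64 and 2.10.

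The 13 small subunit proteins reached from *Rps4l*, a relative of *Rps4x*, at 1.27 ± 0.19 (SE; limma, adjusted p = 2.0e-04) down to *Rps12* at -0.71 ± 0.20 (limma, adjusted p = 0.01). *Rps4l* had RPFs of 4202, 7074 and 4494 normalized reads against mRNA of 1658, 2263 and 2354. *Rps12* was the only ribosomal protein called below, with RPFs of 12267, 23598 and 11363 normalized reads against mRNA of 21407, 27632 and 22487, so that the libraries of the 2 types overlapped although Ribo-Seq was lower within each replicate. *Rps27l* at 0.71, *Rps19* at 0.65 and *Rps28* at 0.51 were called above. Among those not called were *Rps21* at 0.49, *Rps16* at 0.47, *Rps29* at 0.46, *Rps25* at 0.33, *Rps14* at 0.21, *Rps15* at 0.12 and *Rps2* at -0.26.

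All 8 factors and regulators among the 35 were called, 6 above and 2 below. *Eef1d*, part of the exchange factor that reloads elongation factor 1A, and *Eif5a*, which helps the ribosome past stretches of difficult peptide bonds, both had a log2 TE of 1.19, with adjusted p of 2.4e-04 and 3.5e-04 in limma. *Rps19bp1*, which encodes a protein that binds RPS19, stood at 1.13, and *Eif4ebp1*, the inhibitor of the cap-binding protein eIF4E, at 0.98. *Eif1b*, a relative of the start codon selection factor *Eif1*, stood at 0.58 and *Eif4e2*, a cap-binding protein of the eIF4E family, at 0.48. *Eif2d*, which can deliver tRNA to the small subunit, lay below at -0.62. *Eif4ebp3*, another inhibitor of eIF4E, was lowest at -1.60 ± 0.27 (SE; limma, adjusted p = 3.7e-04), a 3.04-fold deficit that just passed the 3-fold threshold, which 10.9% of all genes did downwards. The mesoderm table lists this gene too, as it does *Rplp2*. Without replicate 2, 0 of the 35 passed the 3-fold threshold downwards and 2 passed it upwards.

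**Figure D3:**
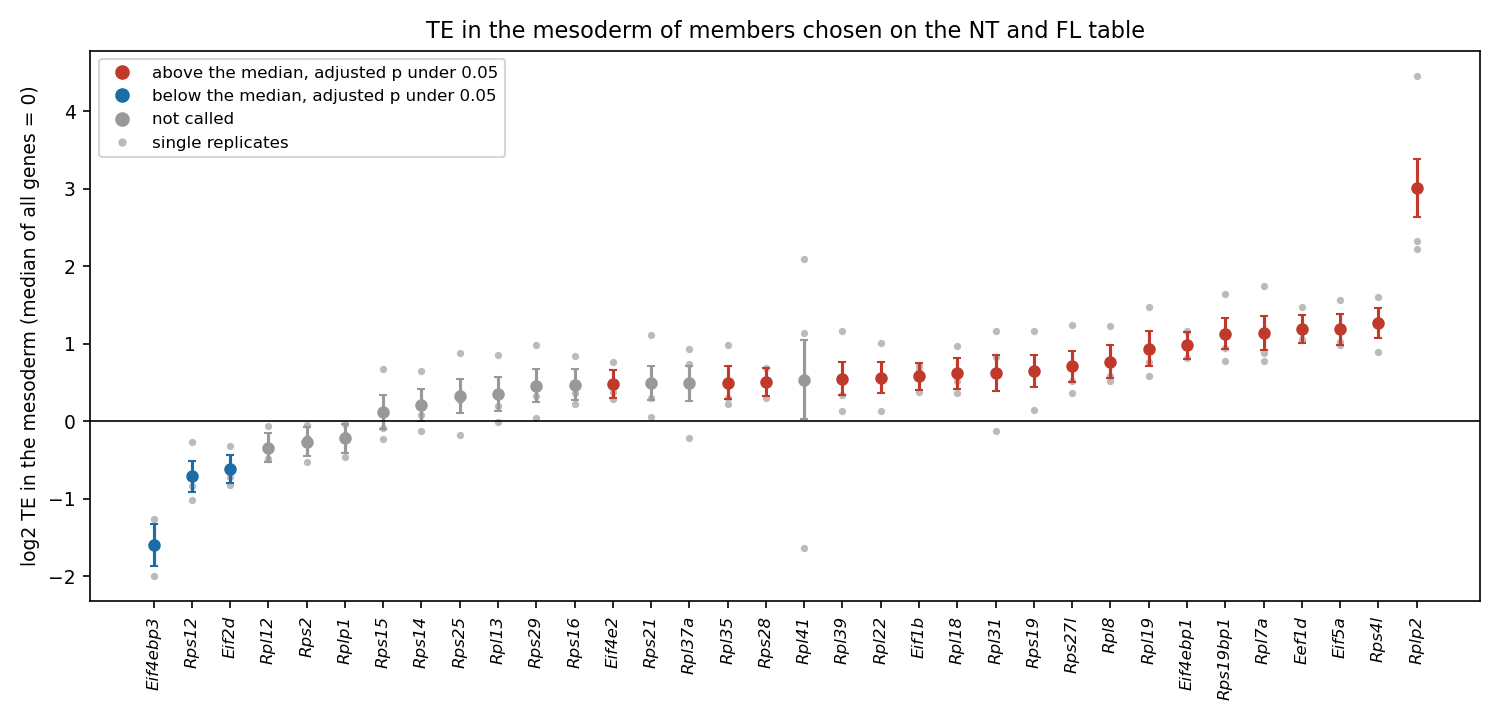
Log2 TE in the mesoderm (vertical, 0 is the median of all genes) of 34 of the 35 members that the NT and FL table lists, ordered by value, with the SE of the limma fit as bars, single replicates as small dots and calls at an adjusted p under 0.05 in colour. The 19 red genes lie above the median, from 0.48 for *Eif4e2* to 3.01 for *Rplp2*, and the 3 blue genes below it.

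The 11 members that the mesoderm table lists were chosen for extreme TE there, so their values are a description. *Rplp2* and *Eif4ebp3* are among them and were tested above only because the NT and FL table lists them too. *Rpl37* (uc007vcs.2), a large subunit protein with a zinc-binding motif, had the highest log2 TE, 3.21 ± 0.45 (SE, n = 3). Its mRNA was 35.9, 20.5 and 17.5 normalized reads in replicates 1, 2 and 3, which is 71, 43 and 30 reads, and its RPFs were 101.3, 375.5 and 325.2. The replicates thus gave a log2 TE of 1.44, 4.09 and 4.11, with replicate 1 apart. *Rpl29* varied alike, with 0.39, 3.42 and 3.28 and a fitted value of 2.36, and so did *Rps15a*, with 0.26, 2.18 and 3.00 and a fitted value of 1.81. *Rpl14* stood at 2.45, *Eif1a*, which opens the small subunit for scanning, at 1.60 and *Rpl36al* at 1.55. In the other direction, *Eif4g3*, a scaffold of the cap-binding complex, lay at -1.35 and *Eef2k*, the kinase that inhibits elongation factor 2, at -1.59.

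*Rps27* (uc008qbl.2) had hardly any RPFs in any tissue. Its Ribo-Seq reads were 4, 2 and 6 in the mesoderm, 24, 10 and 0 in NT and 0, 6 and 13 in FL, while its RNA-Seq reads lay between 343 and 832 in all 9 libraries. Its log2 TE was -5.09 in the mesoderm, -6.28 in NT and -6.31 in FL. With so few RPFs these values depend on the 1 normalized read added to every value, most where a library has none.

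TE averaged over NT and FL is not the change between them, but both come from the same libraries. For the 33 members that only the NT and FL table lists, its test is independent of the choice only where both tissues vary alike. FL replicates spread more than NT ones for many of the 33, so the choice can carry over into the mean. With limma, 8 of the 33 were called above the median and 3 below, where 30.4% of all genes were called above and 31.6% below, and 0 passed 3-fold in either direction. The other 10 had been chosen for extreme TE in the mesoderm, and all were called, 6 above and 4 below, each in the direction of its mesoderm TE. Over all 43 members the counts were 14 and 7. Those above were *Rpl14*, *Rpl36al*, *Rpl37*, *Rpl7a*, *Rplp2*, *Rps15a*, *Rps27l*, *Rps4l*, *Eef1d*, *Eif1a*, *Eif1b*, *Eif4ebp1*, *Eif5a* and *Rps19bp1*. Those below were *Rps12*, *Rps2*, *Rps27*, *Eef2k*, *Eif2d*, *Eif4ebp3* and *Eif4g3*. Of the 43, *Rpl14* alone passed 3-fold upwards, at 2.13 ± 0.26 (SE; limma, adjusted p = 3.5e-05), and *Rps27* alone downwards, at -6.30 ± 0.77 (limma, adjusted p = 3.4e-05), where 0.881% and 7.87% of all genes passed. The RPFs of *Rpl14* were 909.3, 938.4 and 1799 normalized reads in NT and 2962, 3636 and 1696 in FL, against mRNA of 549.0, 218.5 and 327.4 in NT and 477.1, 459.8 and 416.0 in FL, so that Ribo-Seq was higher in each library. The count above over all 43 moved with single libraries. Without Ribo-Seq replicate 3 of FL, 27 were called above, against 35.2% of all genes, and 7 below, against 36.3%. Without Ribo-Seq replicate 3 of both tissues the counts were also 27, against 36.0%, and 7, against 36.8%. Without replicate 2 of every group, 4 were called above, against 15.5%.

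The change in TE between FL and NT chose the 35 members of that table, so it is described with no test. TE was higher in FL than in NT for 34 of the 35, with a median difference in log2 TE of 0.96. RPFs were higher in FL for the same number, with a median difference of 1.23, and mRNA differed by a median of 0.20. All 3 FL libraries lay above all 3 NT libraries for 19 of the 35 in RPFs, where 21.5% of all genes did so, and for 4 of the 35 in mRNA, where 23.3% did. *Eif4ebp3* alone of the 35 had RPFs higher in all NT libraries, as 21.1% of all genes did, and 0 had higher mRNA there, against 24.1%. In log2 TE, 10 of the 35 were higher in all FL replicates, among them *Eef1d*, *Eif5a* and *Rps27l*, where 10.1% of all genes were, and 0 in all NT replicates, where 6.81% were.

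The difference was seen in replicates 1 and 2 of FL. The median log2 TE of the 35 was -0.69, -0.19 and -0.02 in NT replicates 1, 2 and 3 and 1.13, 1.23 and -0.01 in FL replicates 1, 2 and 3, so that the third replicate of FL lay at the third replicate of NT. The median of all genes was within 0.04 of 0 in each of these. *Rpl8*, a large subunit protein near the catalytic centre, serves as an example with high counts. Its RPFs were 21143, 21650 and 37412 normalized reads in NT and 75339, 84732 and 34017 in FL, with mRNA of 31347, 18751 and 21935 in NT and 29619, 30060 and 27004 in FL. RNA-Seq replicate 1 of NT, whose replicate had the lowest TE, also stood apart, with a Pearson's r of 0.946 and 0.949 against 0.970 between the other NT RNA-Seq libraries and the highest share of ribosomal protein mRNA in NT, 1.70%. Its *Epcam*, an epithelial marker, was 659.0 normalized reads against 96.0 and 106.7, and its *Dcx* 2675 against 7953 and 6797. Without it the median difference in log2 TE was 0.83 and that in mRNA 0.44. *Epcam* also differed between tissues, with RPFs of 174.9, 187.0 and 60.9 in NT and 1899, 1795 and 1215 in FL, and its part in the result was not tested. Without Ribo-Seq replicate 3 of both tissues, the median difference in log2 TE was 1.51 and that in RPFs 1.84.

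**Figure D4:**
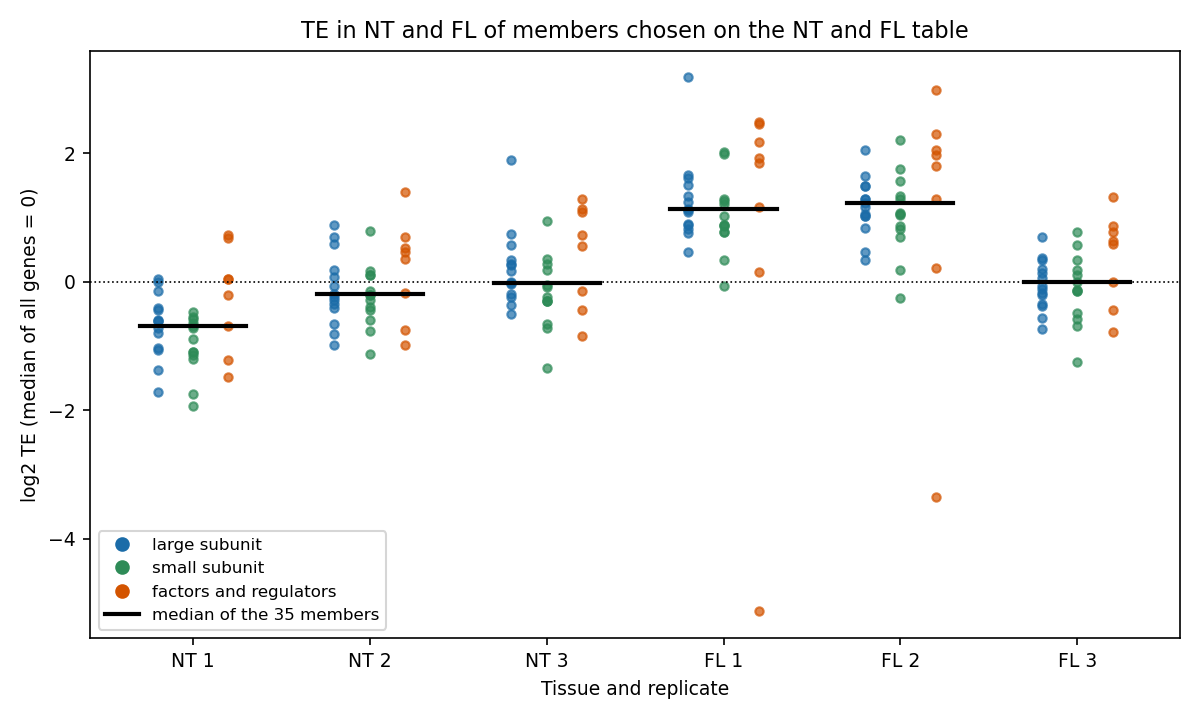
Log2 TE (vertical, 0 is the median of all genes) of the 35 members that the NT and FL table lists, in each replicate of NT and FL, coloured by role, with the median as a line. The medians of FL 1 and FL 2 are 1.13 and 1.23, whereas that of FL 3 is -0.01 and those of NT lie between -0.69 and -0.02.

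Between roles the values were close, but these members were chosen by this same difference, so the closeness says nothing about the roles. The median difference in log2 TE between FL and NT was 0.92 for 14 large subunit proteins, 1.02 for 13 small subunit proteins and 1.03 for 8 factors and regulators. *Eif4ebp1* had the largest difference towards FL, 1.73 ± 0.77 (SE), with RPFs of 307.2, 318.8 and 433.4 normalized reads in NT and 1942, 2197 and 754.0 in FL, which do not overlap. Its log2 TE did overlap, with -1.22, 1.40 and 1.29 in NT and 2.48, 2.98 and 1.32 in FL. *Rps27l* followed in this difference at 1.67 and *Eif5a* at 1.35. *Rplp1*, *Rps29*, *Rps4l*, *Rps15*, *Eif4e2* and *Rpl31* lay between 1.11 and 1.31. The rest of those higher in FL lay between 0.77, for *Rpl41*, and 1.08, for *Rpl39*. *Eif4ebp3* changed the other way by -2.85 ± 1.05 (SE). Its RPFs were 83.1, 65.0 and 59.4 normalized reads in NT and 3.2, 10.7 and 58.2 in FL, where FL replicates 1 and 2 hold 2 and 5 reads and replicate 3 lies at the level of NT.

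For the members that the mesoderm table lists, the change between FL and NT is independent of the choice and was tested for 10, as *Rpl29* is only in the mesoderm table. With limma, 0 of the 10 passed an adjusted p under 0.2 with a 2-fold change, which 0.107% of all genes did towards FL and 0.276% towards NT, and 1 had an unadjusted p under 0.05. The tests of edgeR and DESeq2 on recovered reads also called 0, with 1 and 2 at an unadjusted p under 0.05. No share over all genes is at hand for these tests. As so few of all genes passed in limma, 0 of 10 does not set the members apart. The differences in log2 TE, FL minus NT, were 1.10 for *Eif1a*, 0.96 for *Rplp2*, 0.90 for *Rps15a*, 0.78 for *Rpl14*, 0.77 for *Rpl36al*, 0.69 for *Rpl37*, -0.06 for *Rps27*, -0.32 for *Eif4g3*, -0.80 for *Eef2k* and -2.85 for *Eif4ebp3*, with SE from 0.26 to 1.54. Their adjusted p in limma ran from 0.29 for *Eif4ebp3* to 0.99 for *Rps27*.

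Calls appeared when the libraries that stand apart were left out, as they did for all genes. Without Ribo-Seq replicate 3 of both tissues, limma called *Rpl14* and *Rpl36al* higher in FL and *Eef2k*, *Eif4ebp3* and *Rps27* higher in NT, while 19.0% of all genes were called higher in FL and 23.4% in NT. *Rpl36al* then differed by 1.18 ± 0.20 (SE; limma, adjusted p = 3.5e-04) and *Eef2k* by -1.40 ± 0.25 (limma, adjusted p = 5.8e-04). Without the third FL Ribo-Seq library alone, 4 members were called higher in FL, namely *Rpl14*, *Rpl36al*, *Rpl37* and *Rps15a*, and *Eef2k* and *Eif4ebp3* higher in NT, where 15.7% and 20.4% of all genes were. Without the third NT Ribo-Seq library alone, *Rpl14* was called higher in FL and *Eif4ebp3* in NT, where 10.1% and 15.7% of all genes were.

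Close relatives among the members differed in level and in TE. The stalk proteins *Rplp1* and *Rplp2*, with 65.3% identical aligned coding bases, had mRNA of 330 and 0.538 normalized reads per counted codon in the mesoderm, although both proteins are part of each ribosome. *Rplp1* had RPFs of 6929, 7175 and 13231 normalized reads in NT and 34730, 40599 and 16205 in FL, so that its FL libraries were all higher. *Rplp2* had 190.8, 183.0 and 97.1 in NT and 485.9, 375.1 and 134.4 in FL, which overlap. Its mRNA was 248.5, 96.8 and 24.8 in NT and 52.4, 89.4 and 122.5 in FL, with log2 TE of -0.41, 0.88 and 1.90 in NT and 3.18, 2.05 and 0.13 in FL, so that the spread among replicates was as large as the gap between tissues. The mRNA of *Rplp1* was 22672, 37769 and 33621 in the mesoderm, 22368, 12452 and 15261 in NT and 20478, 22761 and 20438 in FL.

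*Rpl37* and *Rpl37a*, with 55.1% identical aligned bases, differed in the same way. *Rpl37a* had mRNA of 9095, 7037 and 4778 normalized reads in the mesoderm, 7189, 5276 and 6175 in NT and 7920, 6494 and 6323 in FL, and RPFs of 7987, 13851 and 8170, of 4779, 4550 and 4861 and of 14062, 13458 and 5582 in the same tissues. *Rpl37* had mRNA of 198.6, 43.7 and 79.8 in NT and 97.9, 63.9 and 65.1 in FL, and RPFs of 149.6, 152.9 and 117.4 and of 359.2, 215.3 and 88.1. Its log2 TE was 0.61 in NT and 1.34 in FL, both under the 3.21 of the mesoderm, with overlapping libraries. *Rpl36al*, a close relative of *Rpl36a*, had mRNA of 1908, 1481 and 1179 in the mesoderm, 1241, 1164 and 1374 in NT and 1448, 1289 and 1456 in FL. Its RPFs were 3716, 6501 and 3733, then 2594, 2669 and 2760, and then 7692, 6168 and 2781, so that each FL library lay above each NT library, the third narrowly.

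*Rps27* and *Rps27l* have coding sequences of 255 bases that differ at 61. The first 30 counted bases of each, from GENCODE transcripts, are shown since 30 bases are about the length of an RPF, with the differing bases in capitals.
Rps27: aagaGGaaacaCaagaaAaaGcgCctggtG
Rps27l: aagaAAaaacaTaagaaGaaAcgGctggtT
Of the 30-base windows of *Rps27l*, 100.0% were found in no other coding gene, whereas for *Rps27* this was 0%. *Rps27l* had RPFs of 2705, 4080 and 2105 normalized reads in the mesoderm, 1637, 1813 and 1184 in NT and 7819, 6861 and 3661 in FL, with mRNA of 2044, 1674 and 1430, of 2222, 1594 and 1427 and of 1960, 2027 and 2147. Its FL RPFs thus lay above NT in all libraries while its mRNA overlapped. The RPFs of *Rps27* did not exceed 19.4 normalized reads in any library, with mRNA between 199.8 and 631.3.

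**Figure D5:**
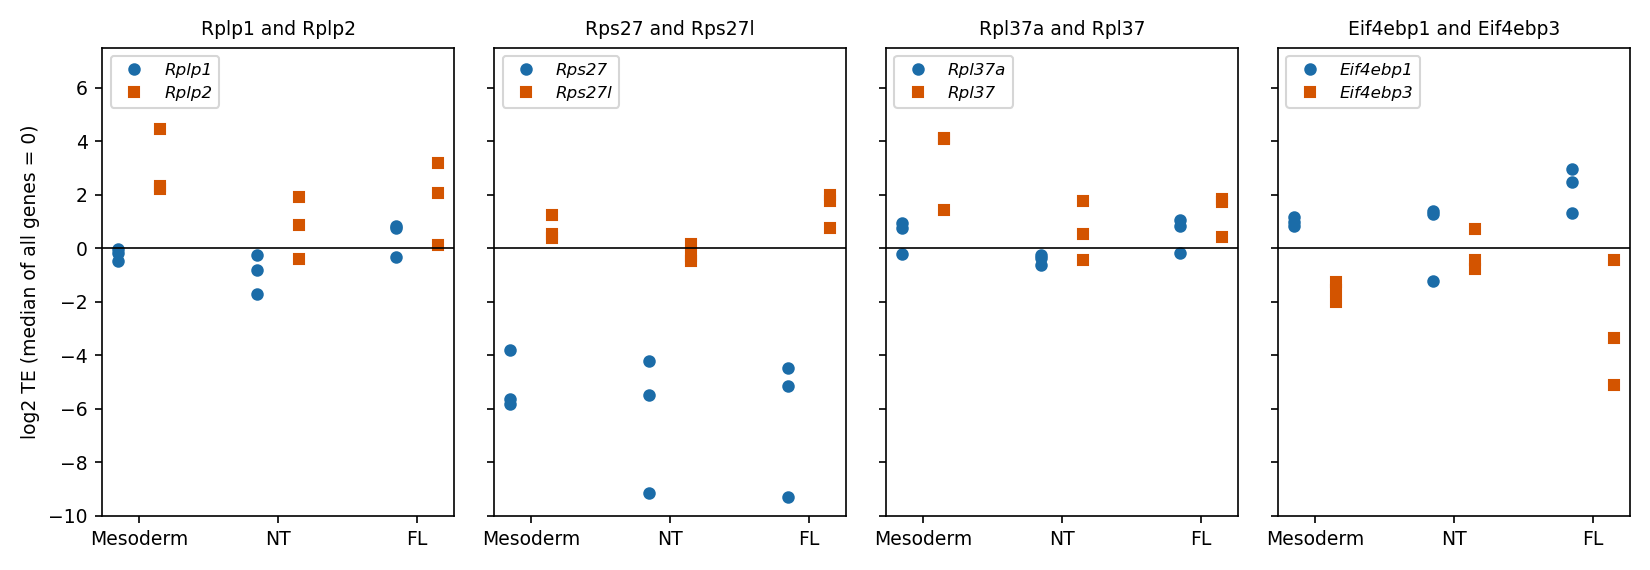
Log2 TE (vertical, 0 is the median of all genes) of 4 sets of related members in each of 3 replicates of the mesoderm, NT and FL, as blue circles for the first gene and orange squares for the second. *Rps27* lies at -3.82 or below in every replicate and *Rps27l* between -0.47 and 1.99, *Rplp2* and *Rpl37* lie above their relatives in the mesoderm, and *Eif4ebp1* and *Eif4ebp3* move apart in FL replicates 1 and 2.

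The eIF4E inhibitors, whose binding to eIF4E mTOR relieves, differed in TE in the mesoderm and FL. In NT the replicates did not go one way, with log2 TE of -1.22, 1.40 and 1.29 for *Eif4ebp1* and 0.73, -0.76 and -0.44 for *Eif4ebp3*. They have 69.2% identical aligned coding bases. *Eif4ebp1* had mRNA of 541.4, 877.6 and 661.3 normalized reads and RPFs of 1089, 2018 and 1195 in the mesoderm, where Ribo-Seq lay above RNA-Seq. Its mRNA was 701.6, 117.4 and 173.1 in NT, with replicate 1 apart, and 345.3, 277.0 and 301.4 in FL. *Eif4ebp3* had mRNA of 182.1, 116.1 and 92.6 and RPFs of 77.5, 29.0 and 31.6 in the mesoderm, where Ribo-Seq lay below. Its mRNA was 48.6, 108.8 and 79.2 in NT and 145.7, 118.2 and 79.0 in FL. For *Eif4ebp3*, 28.5% of the 30-base windows were found in no other gene.

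The factors *Eif1a* and *Eif1b*, which act together with others at the start codon but are not close in sequence (56.3% of aligned bases), were both above the median. *Eif1a* was scarce, with mRNA of 114.3, 49.7 and 50.1 normalized reads in the mesoderm, 106.6, 69.4 and 42.3 in NT and 48.6, 69.5 and 87.7 in FL. Its RPFs were 321.8, 172.2 and 158.1, then 150.3, 143.1 and 37.7, and then 240.5, 162.0 and 203.1, so that FL lay above NT in every library. *Eif1b* had RPFs of 1077, 1259 and 1009 in the mesoderm, 1407, 1395 and 1215 in NT and 2790, 2330 and 1006 in FL. Its mRNA was 809.5, 750.5 and 621.7, then 862.2, 951.0 and 561.0, and then 618.2, 469.4 and 642.7. FL replicate 3 lay below NT in RPFs, and the libraries overlapped.

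Other genes of the translation machinery could be followed only where the same supplementary tables give a symbol, which was so for 12 of 35 regulators of the mTOR and stress kinase pathways, 11 of 69 ribosome biogenesis genes, 3 of 23 tRNA synthetases and 3 of 20 genes of termination, recycling and ribosome-linked functions. As for the members, only genes that the NT and FL table lists were counted in the mesoderm. There, limma called 4 of 5 regulators below the median and 0 above, with *Tsc1*, a brake on mTOR, at -2.21, *Rictor* at -1.69 and *Mtor* itself at -1.53. Of 11 biogenesis genes, 7 were above and 4 below, led by *Imp3*, a part of the small subunit processome, at 2.14, and *Mdn1*, a large ATPase of large subunit maturation, at -2.54. *Polr1a*, the largest subunit of RNA polymerase I, lay at -1.70. All 3 tRNA synthetases, *Iars* at -1.07, *Lars* at -0.84 and *Eprs* at -0.60, were below. Of 2 genes in the last list, 2 were above, with *Tma7* at 0.89. The background is that given for the 35 members, 32.0% above and 34.2% below.

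In the mean TE of NT and FL, only genes that the NT and FL table alone lists were counted, since the others had been chosen for extreme TE in the mesoderm. Of 2 such regulators limma called 0 above and 0 below, of 6 biogenesis genes 5 above and 1 below, of 3 synthetases 0 above and 1 below, and of 2 genes in the last list 2 above and 0 below, against 30.4% above and 31.6% below over all genes. *Atf4*, whose translation rises under stress through upstream reading frames, and *Ppp1r15a* are in the mesoderm table, and their mean log2 TE of -2.72 and -2.10 is given as a description. The change between FL and NT could be tested for 16 genes of these lists that the mesoderm table gives, and limma called 0 of them at the thresholds used for the members.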

How the data were processed

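Ribo-Seq and RNA-Seq of mesoderm, NT and FL, 18 libraries in 6 groups of 3, were used. The deposited values are a signal per gene: the authors trimmed reads with cutadapt, discarded reads from rRNA and other small noncoding RNAs, mapped what remained to canonical UCSC transcripts of mm10 (the submitters' notes name Bowtie2), and kept uniquely mapped reads. They assigned reads to A sites, left out the first 15 and last 5 codons and divided by an effective library size from DESeq. Values are whole multiples of 1 read within 0.006, from which reads were recovered.

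Symbols came from 2 supplementary tables of the study, of which the first 2000 rows each were at hand, giving 3379 genes a symbol; their values were not used. The members and gene lists were chosen with earlier results of these data known. Members were named once each, except 1 member not reported here, like 1 gene of another list, with values in all libraries for *Rpl37*, *Rplp2*, related pairs and the extremes.

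log2(normalized reads + 1) was fitted with limma 3.58.1 in R 4.3.3 over all 12064 mesoderm genes or all 11231 NT and FL genes, with a variance trend, centring on the median and Benjamini-Hochberg adjustment (two-sided). Each table was normalized separately, so tests stayed within one. The mesoderm fit had the replicate as a block, as the sorted cells of a replicate were divided between both library types. Deviations of same-numbered mesoderm libraries correlated at 0.74, 0.58 and 0.57. Cells of dissected tissue were divided between both types too, but the main NT and FL fit had no block. Deviations of same-numbered RNA-Seq and Ribo-Seq libraries correlated at -0.28, 0.35 and 0.05 in NT and 0.05, 0.12 and 0.09 in FL. Fits with a block are given below. TE was called at an adjusted p under 0.05, with a 3-fold threshold as stated, and its change at an adjusted p under 0.2 and 2-fold. The change between FL and NT was planned for the 8 members listed in the mesoderm table only; the 10 in that table were used instead, a choice made after seeing the data, and both gave 0 calls. Nothing states separate litters, so p-values measure the spread between these libraries. Intervals cover counting error only.

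Coding features came from GENCODE M21 and start sites from RefSeq, both on GRCm38. edgeR 4.0.16 and DESeq2 1.42.0 on recovered reads, other pseudocounts, a filter on low values, TMM scaling, and fits without single libraries were tried. The limma, edgeR and DESeq2 fits were first tested on simulated data.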

Additional observations from a re-analysis of the deposited data

How the results depend on the processing

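For TE in the mesoderm, the fit with no replicate block called 7 of the 35 members above and 1 below, against 16.9% and 23.0% of all genes. Leaving out single libraries or replicates gave 10 to 21 above and 1 to 5 below, and 1 to 2 above and 0 to 1 below at 3-fold. The shares of all genes moved too, with 21.5% above and 27.3% below without replicate 3, and 33.6% and 35.9% without replicate 2. At 3-fold, 0 were below with a pseudocount of 8, among genes averaging 100 or more normalized reads, and with edgeR. For the mean TE of NT and FL, leaving out gave 4 to 27 above and 4 to 7 below, and 1 to 3 and 1 to 2 at 3-fold. Without Ribo-Seq replicate 3 of both tissues, 27 were above, with 3 above and 2 below at 3-fold. A pseudocount of 0.1 gave 2 below at 3-fold. Among all genes the share above was 36.0% without Ribo-Seq replicate 3 of both tissues and 15.5% without replicate 2 of every group. For the change between FL and NT, leaving out gave 0 to 4 members called towards FL and 0 to 2 towards NT, or 0 to 3 with the members listed in both tables. Without Ribo-Seq replicate 3 of both tissues it gave 2 and 2, or 2 and 3, where 19.0% of all genes were called towards FL and 23.4% towards NT. The described median change in log2 TE of the 35 ran from 0.59 to 1.51, in RPFs from 0.91 to 1.84 and in mRNA from 0.06 to 0.44. The cause of these shifts was not tested.

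NT and FL were taken from shared embryos, but no source used here says that a number marks the same ones in both. Deviations of same-numbered NT and FL Ribo-Seq libraries correlated at -0.29, -0.50 and -0.58. With the replicate block over the 4 groups, the mean TE gave 14 above and 6 below, and with a block of tissue by number 15 and 7. The change between FL and NT gave 0 calls under either block. Among single genes, 72 of the mesoderm values fell short of the threshold under an alternative, 19 newly passed it, 443 kept direction and side and 9 turned sign. For the mean TE these numbers were 64, 44, 859 and 40. The genes that turned sign were not called in either fit. When libraries were left out, mesoderm TE ran from -0.24 to 1.61 for *Rpl41*, -0.03 to 0.37 for *Rps14* and -0.17 to 0.30 for *Rps15*, and mean TE from -0.11 to 0.32 for *Rpl13*, -0.10 to 0.29 for *Rpl37a*, -0.37 to 0.34 for *Rpl41*, -0.14 to 0.20 for *Rps14*, -0.20 to 0.20 for *Rps15* and -0.42 to 0.18 for *Rps19*. Mean TE of *Rps14* was 0.02 with edgeR and 0.03 with DESeq2, and that of *Rps15* 0.00 with edgeR and 0.01 with DESeq2. In the fit that lacks Ribo-Seq replicate 3 of both tissues it was 0.08 for *Rps14*, 0.13 for *Rps15* and 0.21 for *Rps19*. Merging replicates that differ by less than sampling noise was not run, as the closest libraries differed beyond it. Few reads limit *Rps27*, *Rpl37*, *Rplp2* and *Eif4ebp3*.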
